A study of Danio rerio with 12 samples.

Results

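The genes described here are 8 transcription factor genes of the circadian clock of zebrafish: arntl1a, arntl1b and arntl2, clocka and npas2, rorca and rorcb, and nfil3-5. They were chosen by their symbols, which the deposited tables pair with Ensembl gene IDs, and all 8 had 1 row each in both tables, out of 32674 genes. All 8 also passed the filter for testing, a mean scaled count of at least 10, which 18390 genes met. The choice was made with results of these data known, above all that clock genes differed between libraries of 1 diet, so the levels and fold changes of the 8 genes are given as a description and not as evidence for the pattern that led to them.

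The clock is a feedback loop of transcription. BMAL proteins, encoded by the arntl genes, pair with CLOCK or its relative NPAS2, bind E-box elements and switch on the per and cry genes, whose proteins then shut the pair down. In a second loop, ROR receptors activate and REV-ERB receptors (the nr1d genes) repress targets that include the arntl genes, so arntl RNA normally peaks out of phase with per and nr1d RNA. NFIL3 is known from mammals as a repressor that binds D-box elements against the activators DBP, TEF and HLF, and nfil3-5 belongs to its family, so by known role it is no activator. In zebrafish most tissues hold clocks that light can set directly, and larvae keep such rhythms from the first days of life.

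The RNA was that of whole F1 offspring, 5 days after fertilisation and of strain EK. Their parents had been kept on a diet holding MeHg (methylmercury) at 1, 3 or 10 ppm, or at 0 ppm for the controls. Each of the 12 libraries was made from a pool of 5 larvae, with 3 libraries for each diet. The labels give neither the hour at which larvae were collected nor whether the pools of a diet had different parents, so each p-value reflects pool-to-pool spread, which may be technical. Since whole bodies were used, fewer cells of a type and less RNA per cell cannot be told apart. Of 14 tissue markers, 13 had a row (exorh had none), and all 13 were at 1 FPKM or more in every library, among them rho of rods, mylpfa of fast muscle and fabp10a of liver.

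Values are scaled counts, that is fragments per gene divided by a size factor for the library, and FPKM, fragment numbers corrected for gene length and library depth, where genes are compared with each other. The libraries held between 5630438 (1 ppm replicate 3) and 11848670 (10 ppm replicate 3) recovered fragments. Control replicates 2 and 3 and 1 ppm replicates 2 and 3 stood apart from the other 8 libraries: on the leading principal component over the tested genes (34.3% of the variance) their 4 scores were the highest. These scores were 25.4, 37.2, 12.6 and 65.6, against -31.6 to -1.43 in the others. The repressor gene per1b, which is none of the 8 genes, had 549 to 864 scaled counts in those 4 libraries and 49.4 to 78.6 in the other 8.

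All 8 genes were lowest in those 4 libraries: for each of them, every 1 of the 4 lay below every 1 of the other 8, as was the case for 3.30% of all tested genes. The 4 hold 2 of the 3 controls and 2 of the 3 libraries at 1 ppm, and none at 3 or 10 ppm. The low values of the 8 genes therefore fell within the controls and the 1 ppm diet, and diet and this difference between libraries are partly confounded. Because the genes were chosen with this split known, the count is a description only.

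**Figure D1:**
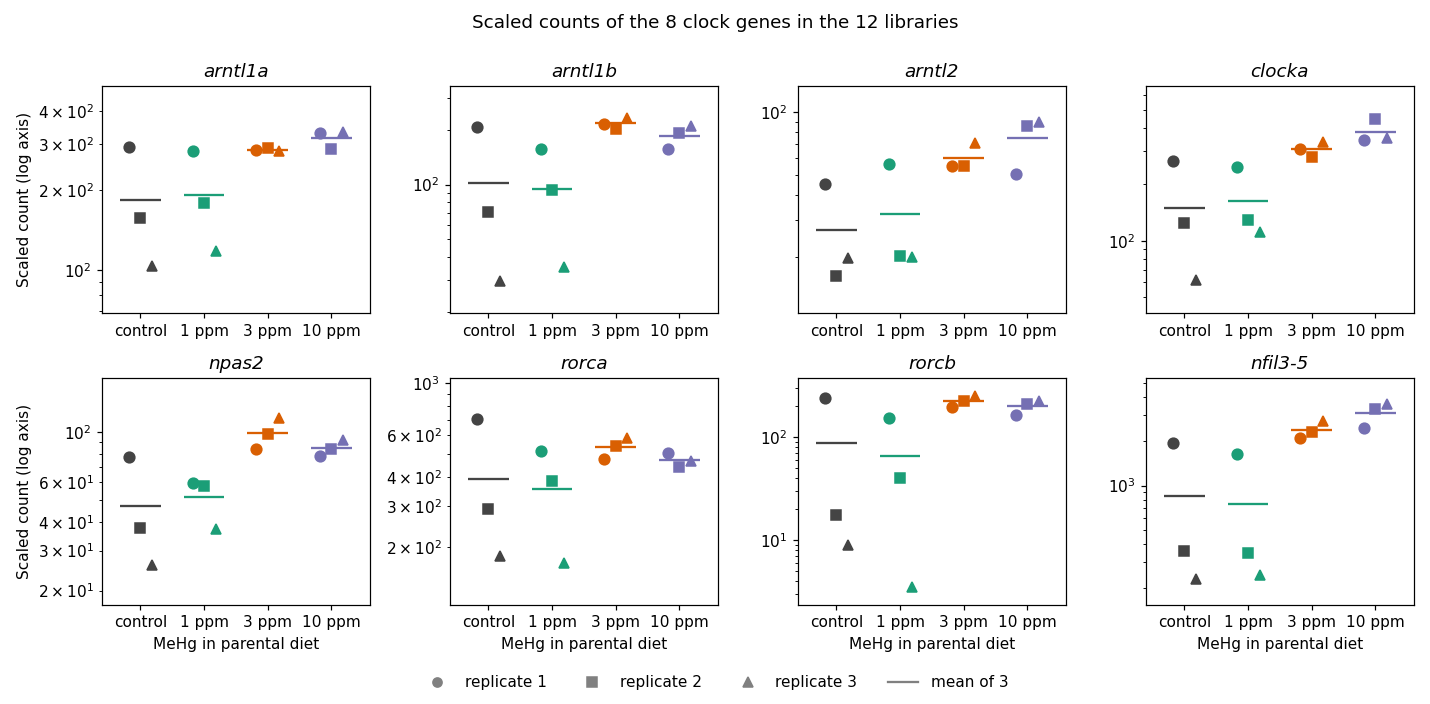
Scaled counts (log axis) of the 8 genes by parental diet, with 1 point for each of the 12 libraries, the replicate number as its shape and the mean of 3 as a line. In every panel replicates 2 and 3 of control and 1 ppm are the 4 lowest points. The 3 and 10 ppm points all lie above control replicate 1 for arntl2, clocka, npas2 and nfil3-5. They all lie below it for rorca, and on both sides of it for arntl1a, arntl1b and rorcb.

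The arntl genes encode the BMAL subunit of the activator. For arntl1a (ENSDARG00000006791, bmal1a in RefSeq) scaled counts were 291, 157 and 103 in control replicates 1 to 3, 281, 179 and 118 at 1 ppm, 284, 289 and 282 at 3 ppm, and 329.8, 287 and 332 at 10 ppm. Its paralogue arntl1b (ENSDARG00000035732, bmal1b) had 206, 70.6 and 29.6 in the controls, 156, 92.9 and 35.1 at 1 ppm, 217, 202 and 232 at 3 ppm, and 156, 193 and 209 at 10 ppm. Over the 12 libraries arntl1a spanned 3.22-fold and arntl1b 7.86-fold. The third gene, arntl2 (ENSDARG00000041381, bmal2), had the lowest mean FPKM of the 8 over the 12 libraries, though it was not the lowest in every library. Scaled counts of arntl2 were 44.8, 16.1 and 19.7 in the controls, 56.1, 20.3 and 19.9 at 1 ppm, 55.3, 54.8 and 71.1 at 3 ppm, and 50.4, 85.6 and 89.3 at 10 ppm. In scaled counts all arntl2 values at 3 and 10 ppm lay above the highest control, which was not so for arntl1a and arntl1b. Of all tested genes, 8.27% at 3 ppm and 5.55% at 10 ppm lay wholly above the controls in scaled counts. In FPKM, arntl1b at 3 ppm (19.1 to 20.5) also lay above the highest control (17.7). So did arntl1a at 10 ppm, by a narrow margin (23.58 to 26.98 against 23.55). The share of all tested genes without overlap in FPKM was not computed, so these values are a description only.

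CLOCK and NPAS2 are the alternative partners of BMAL. The gene clocka (ENSDARG00000011703) had 265, 124 and 62.0 scaled counts in control replicates 1 to 3, 246, 129.8 and 112 at 1 ppm, 308, 280.1 and 335 at 3 ppm, and 345, 446 and 352 at 10 ppm. Diets of 3 and 10 ppm lay above the controls without overlap, as did 8.27% and 5.55% of all tested genes. The 10 ppm libraries also lay wholly above those of 3 ppm, as for 6.54% of tested genes. Only 1 of the 12 clocka values was a whole number of fragments, within 0.02 fragments, while the other 7 genes had 12 of 12, so the clocka count holds fractional fragments. How the authors counted reads that fit more than 1 paralogue is not stated in the labels, and the split between paralogues is uncertain to that extent. For npas2 (ENSDARG00000016536) the controls had 77.3, 37.8 and 26.0, the 1 ppm libraries 59.5, 57.4 and 37.4, the 3 ppm libraries 84.0, 97.3 and 115, and the 10 ppm libraries 78.5, 84.0 and 92.2. It came nearest to joining the 2 sets of libraries, with 57.4 in the highest of the 4 and 59.5 in the lowest of the 8.

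The rorc genes encode ROR gamma type receptors, the activating arm of the second loop. Of all 8 genes rorcb (ENSDARG00000017780) had the widest range, 71.5-fold. Its scaled counts were 237, 17.5 and 8.96 in control replicates 1 to 3, 154, 39.7 and 3.51 at 1 ppm, 197, 226 and 251 at 3 ppm, and 165, 209 and 222 at 10 ppm. The value of 3.51 rests on 3 fragments, with an exact Poisson interval of 0.619 to 8.77 fragments, and that of control replicate 3 on 10 fragments, with an interval of 4.80 to 18.4. These 95% intervals cover counting error only, and both lie far below the 181 fragments of 1 ppm replicate 1 (155.6 to 209). Its paralogue rorca (ENSDARG00000057231) had 704, 291 and 183 in the controls, 513, 382 and 171 at 1 ppm, 475, 540.4 and 583 at 3 ppm, and 503, 441 and 465 at 10 ppm. Control replicate 1 was the highest library for rorca, above all those of 3 and 10 ppm, and it was the second highest for rorcb.

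The gene nfil3-5 (ENSDARG00000094965) was the most abundant of the 8, at a mean of 75.5 FPKM. It had 1960.3, 358 and 232 scaled counts in control replicates 1 to 3, 1651, 349.8 and 246 at 1 ppm, 2099.8, 2299 and 2769.9 at 3 ppm, and 2477, 3321 and 3608 at 10 ppm. The lowest of the 8 libraries was 4.61-fold above the highest of the 4, a wider gap than for any of the other 7 genes (1.04-fold for npas2 to 3.88-fold for rorcb). All libraries of 3 and 10 ppm lay above the highest control, as for 8.27% and 5.55% of all tested genes.

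**Figure D2:**
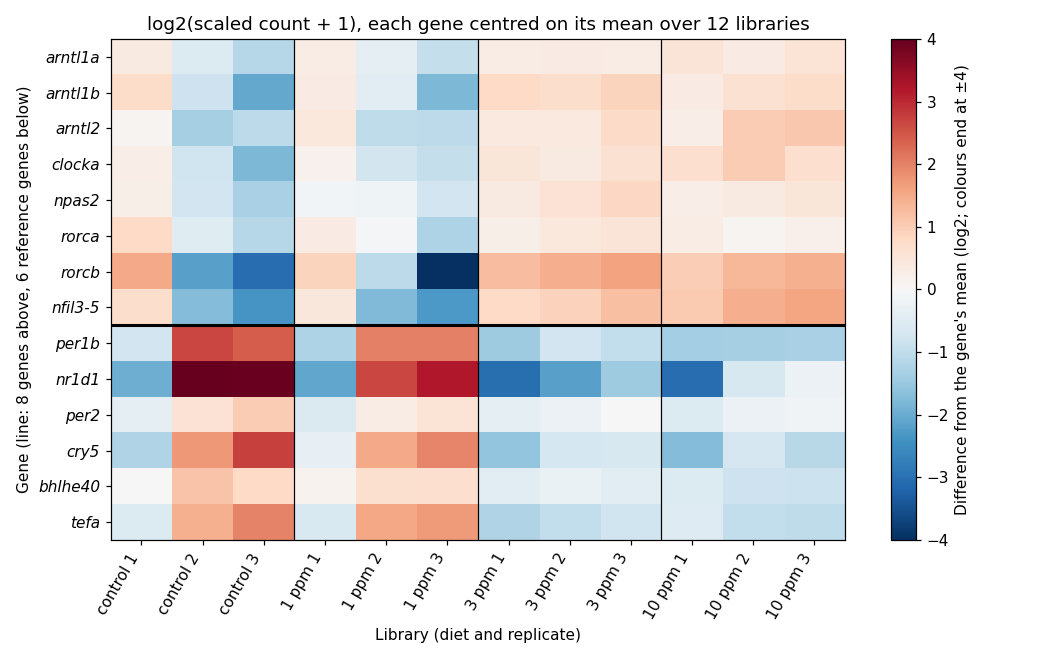
Difference of log2(scaled count + 1) from each gene's mean over 12 libraries, with the 8 genes above the line and 6 other clock genes below it. Columns are libraries in order of diet and replicate, and colours end at ±4. Control 2 and 3 and 1 ppm 2 and 3 are low for the 8 genes and high for per1b, nr1d1, per2, cry5, bhlhe40 and tefa. Of the 40 other clock genes tested, 18 were wholly above in these 4 libraries and 8 wholly below, against 3.86% and 3.30% of all tested genes. The lists were chosen with this split known, so the counts are a description only.

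Set beside each other per length, mean FPKM over the 12 libraries was 75.5 for nfil3-5, 41.3 for rorca, 19.9 for arntl1a, 13.7 for arntl1b, 13.1 for rorcb, 5.24 for clocka, 4.97 for npas2 and 3.72 for arntl2. Of neighbours in this order, rorca lay above arntl1a and arntl1a above arntl1b in all 12 libraries. The order of arntl1b and rorcb was not stable, with arntl1b higher in 7 of 12, and clocka exceeded npas2 in 6 of 12. The gene nfil3-5 exceeded rorca in 8 of 12 libraries. The exceptions were the 4 that stood apart, where nfil3-5 had 9.79 to 15.2 FPKM and rorca 16.1 to 35.9.

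Paralogues did not keep a fixed ratio. The FPKM of arntl1b was 0.304 to 0.892 times that of arntl1a, with 0.749, 0.472 and 0.304 in control replicates 1 to 3, 0.610, 0.580 and 0.339 at 1 ppm, 0.838, 0.808 and 0.892 at 3 ppm, and 0.548, 0.846 and 0.696 at 10 ppm. The FPKM of arntl1b did not follow its scaled counts throughout. Control replicate 1 had 206 scaled counts and 17.7 FPKM of it, and 10 ppm replicate 2 had 193 and 19.9. For arntl1a they had 291 and 287 scaled counts, so the order of libraries in this ratio depends on the measure. For rorcb over rorca the ratio was 0.324, 0.0577 and 0.0471 in the controls, 0.288, 0.0999 and 0.0197 at 1 ppm, 0.397 to 0.413 at 3 ppm, and 0.316, 0.456 and 0.458 at 10 ppm. So rorcb was below 0.1 times rorca in the 4 libraries that stood apart and at 0.288 times or more in the rest. The ratio of npas2 to clocka lay on both sides of 1, from 0.976 to 1.42 in the controls and from 0.812 to 1.496 at 1 ppm. At 3 ppm it ranged from 0.914 to 1.18, and at 10 ppm from 0.637 to 0.866. The 10 ppm libraries did not overlap with those of 3 ppm or control in this ratio, which was not tested and rests in part on the fractional fragments of clocka.

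**Figure D3:**
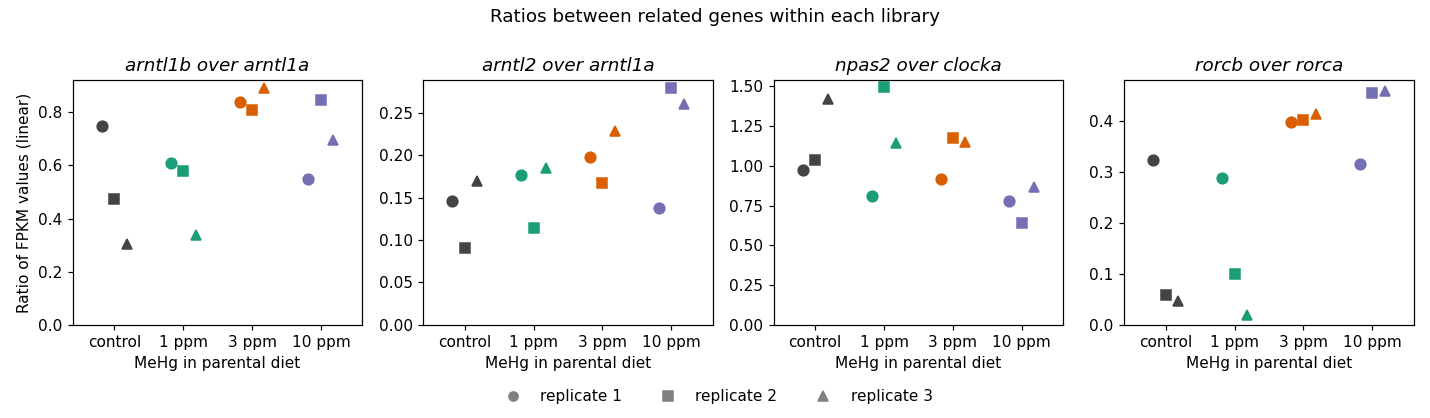
Ratio of FPKM values of related genes in each library by parental diet, on linear axes from 0, with the replicate number as the shape. The ratio of rorcb to rorca is below 0.1 in the 4 libraries that stand apart and 0.288 to 0.458 in the other 8.

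Pooled over the diets, the spread of the 8 genes within a diet was large, and it lay mainly in control and 1 ppm. In controls the highest library was 2.79 (arntl2) to 26.5 (rorcb) times the lowest, and at 1 ppm 1.59 (npas2) to 43.9 (rorcb) times. Within 3 ppm it was 1.02 (arntl1a) to 1.37 (npas2) times, and within 10 ppm 1.14 (rorca) to 1.77 (arntl2) times. The pooled SD of log2(scaled count + 1) about the diet means was 1.78 for rorcb, 1.11 for nfil3-5, 0.89 for arntl1b, 0.65 for rorca, 0.61 for arntl2 and clocka, 0.49 for arntl1a and 0.45 for npas2, against a median of 0.26 over all tested genes. Between 25.5% (rorca) and 64.5% (npas2) of the variance on this log2 scale lay between diets, where the median tested gene had 29.6%. The 4 libraries that stood apart were all control or 1 ppm. Their low values thus enter this share, and diet cannot be told apart from that split in it. Over the 8 libraries other than those 4, the highest value of arntl1a was 1.18 times the lowest, and that of arntl1b 1.49, rorca 1.60, rorcb 1.63, clocka 1.81, npas2 1.93, arntl2 1.99 and nfil3-5 2.19 times. The median tested gene without a 0 had 1.62 there, so arntl1a, arntl1b and rorca lay below it, rorcb close to it, and clocka, npas2, arntl2 and nfil3-5 above it.

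Whether the parental diet moved these genes in the offspring was asked of each dose against control. At 1 ppm the 8 genes were on average where the controls were. Log2 fold changes on the log2(scaled count + 1) scale lay between -0.21 (rorcb) and 0.26 (clocka), 5 higher and 3 lower, with a median of 0.10 against -0.01 over all tested genes. None of the 8 passed with limma over all genes (each adjusted p = 1.00), as for all other genes (percent called 0), and none had an unadjusted p under 0.05, against 1.96% of all tested genes (0.837% higher). None was free of overlap with the controls, where 3.26% of tested genes lay wholly higher and 2.77% wholly lower. The 95% intervals were wide, -3.23 to 2.81 for rorcb and -0.63 to 0.86 for arntl1a. The direction of all 8 genes turned in at least 1 of the fits that left out a single library, as when control replicate 3 was left out (clocka -0.25).

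At 3 ppm all 8 genes had higher means than the controls, with a median log2 fold change of 1.27, against -0.00 over all tested genes. The largest was that of rorcb, 2.67 (SE 1.34), with 225 ± 27.2 scaled counts against 87.9 ± 129 in controls (SD, n = 3). The gene nfil3-5 followed with 2.12 (SE 0.84), at 2389.5 ± 344 against 850.2 ± 963. Smaller differences were 1.502 (SE 0.64) for arntl1b, 1.27 (SE 0.42) for arntl2, 1.27 (SE 0.44) for clocka, 1.19 (SE 0.31) for npas2, 0.76 (SE 0.34) for arntl1a and 0.66 (SE 0.47) for rorca. None passed over all genes (limma adjusted p = 0.382 for npas2 to 0.615 for rorca), where percent called was 0 for higher and 0.0163 for lower values. Without adjustment 6 had p under 0.05, each higher, as had 4.54% of all tested genes (10.4% in either direction). Free of overlap with the controls in scaled counts were 4 genes (arntl2, clocka, npas2 and nfil3-5), all higher, as were 8.27% of tested genes. None was lower without overlap, against 9.45%.

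At 10 ppm the picture was much the same, and this comparison shares its controls with the one at 3 ppm. Log2 fold changes against control were 2.50 (SE 0.84) for nfil3-5, 2.49 (SE 1.34) for rorcb, 1.57 (SE 0.44) for clocka, 1.54 (SE 0.42) for arntl2, 1.27 (SE 0.64) for arntl1b, 0.98 (SE 0.31) for npas2, 0.91 (SE 0.34) for arntl1a and 0.49 (SE 0.47) for rorca. The median was 1.41, against 0.01 over all tested genes. For clocka, 381 ± 56.6 scaled counts stood against 150.5 ± 104 in controls (SD, n = 3). None passed over all genes (limma adjusted p = 0.633 for arntl2 to 0.884 for rorca; percent called 0 in each direction). Without adjustment 5 had p under 0.05, each higher, as had 2.89% of tested genes (5.71% in either direction). Again arntl2, clocka, npas2 and nfil3-5 were higher in scaled counts without overlap with the controls, as were 5.55% of tested genes. None was lower without overlap, against 4.81%. The margins were narrow for npas2 and arntl2. For npas2 the lowest 10 ppm library had 95 fragments (95% Poisson interval 76.9 to 116) and the highest control 88 (70.6 to 108). For arntl2 they had 61 (46.7 to 78.4) and 51 (38.0 to 67.1), all before scaling.

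These differences at 3 and 10 ppm depend on which controls enter. Without control replicate 1, the only control outside the 4 libraries that stood apart, the median of the 8 genes was 1.74 at 3 ppm and 1.98 at 10 ppm. In that fit npas2 passed at 3 ppm (1.61, limma adjusted p = 0.0405), and clocka (2.09, 0.0421) and npas2 (1.41, 0.0431) passed at 10 ppm. Of all 18390 tested genes, 17 passed there at 3 ppm and 41 at 10 ppm. The 2 controls left were both among the 4 libraries, so this fit compares diets across the split known when the genes were chosen. These calls are a description only. Without control replicate 3, 1 of the low libraries, the median was 0.84 at 3 ppm and 0.85 at 10 ppm, with all 8 genes still higher and none passing (adjusted p of 0.817 and 0.999 or more). Over the alternatives tried, the lowest adjusted p of any of the 8 genes was 0.0405 at 3 ppm and 0.0421 at 10 ppm. Without the 4 libraries that stood apart, control replicate 1 was the only control left, assumed to vary like the other diets. There the median was 0.14 at 3 ppm and 0.12 at 10 ppm, and 5 of the 8 genes were higher at each dose. All 8 genes were lowest in the libraries left out, so each difference from control had to shrink. These values too are a description only. The genes that stayed higher at both doses were arntl2 (0.41 and 0.69), clocka (0.21 and 0.51), nfil3-5 (0.28 and 0.66) and npas2 (0.34 and 0.13), while rorca (-0.41 and -0.58) and rorcb (-0.085 and -0.27) were lower. None passed there (adjusted p of 0.719 or more). With per1b as a covariate the medians were 0.18 and 0.19, and as per1b was high in the same 4 libraries, these are likewise a description. Since 2 of the 3 controls stood apart and no library of 3 or 10 ppm did, these doses can be compared with control outside that split only through control replicate 1. That is 1 library.

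**Figure D4:**
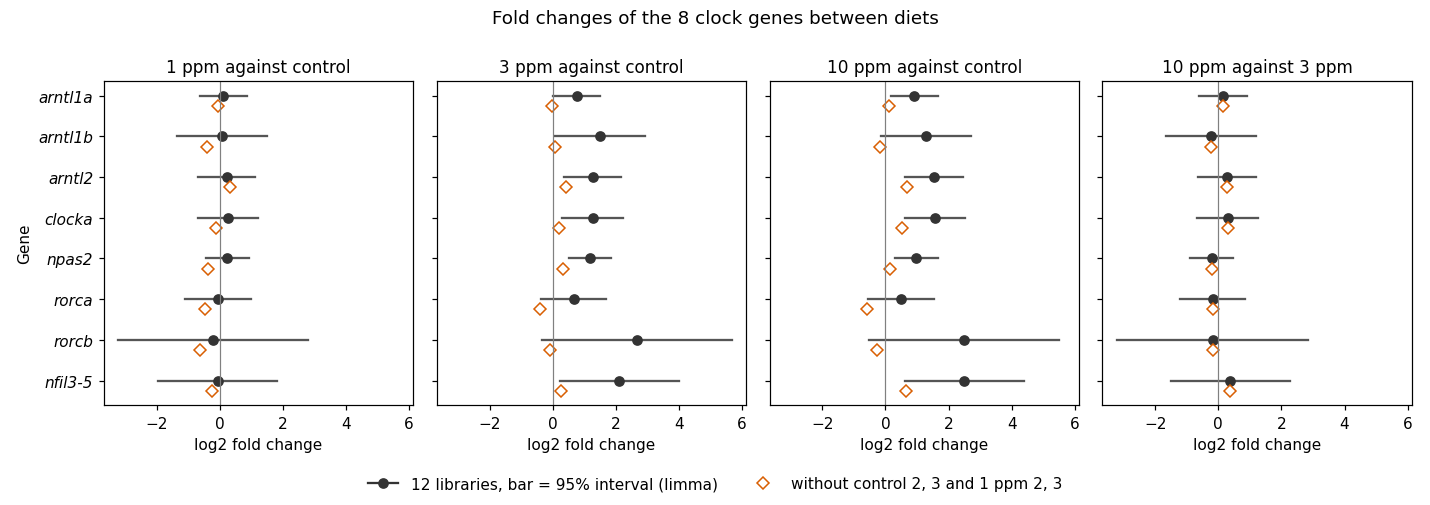
Log2 fold changes of the 8 genes in 4 comparisons of diets, with limma's 95% interval over 12 libraries (bars) and the value without control 2 and 3 and 1 ppm 2 and 3 (open diamonds). Against control at 3 and 10 ppm the diamonds lie between -0.58 and 0.69, while values over all libraries reach 2.67. All 8 genes were lowest in the libraries left out, so these diamonds had to lie lower. At 1 ppm each diamond compares 1 library with 1 control.

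Between 10 and 3 ppm, 6 libraries of similar per1b level and no control were compared. They were not alike in every clock gene: nr1d1 ranged among them from 6.61 to 52.4 scaled counts, with both ends at 10 ppm, while per2 stayed within 288 to 428. The 8 genes were split evenly, 4 higher and 4 lower, with a median of -0.02 against 0.01 over all tested genes. At 10 ppm nfil3-5 was at 0.38 (SE 0.84), clocka at 0.30 (SE 0.44), arntl2 at 0.28 (SE 0.42) and arntl1a at 0.15 (SE 0.34), and npas2 at -0.21 (SE 0.31), arntl1b at -0.23 (SE 0.64), rorcb at -0.18 (SE 1.34) and rorca at -0.18 (SE 0.47). None passed (each limma adjusted p = 1.00, where percent called was 0.0163 for higher and 0 for lower values). Only clocka did not overlap between these diets, with 345 to 446 scaled counts against 280.1 to 335, as was so in this direction for 6.54% of tested genes and in the other for 4.42%. None had an unadjusted p under 0.05, against 3.77% of tested genes (2.65% higher). The SE is shared with the controls and the 1 ppm libraries, whose spread was wide, and the 95% interval of clocka was -0.66 to 1.26. Across all 4 diets, limma's F-test passed for none of the 8 (adjusted p = 0.504 for npas2 and arntl2 to 0.773 for rorca; percent called 0.0163), and 5 had an unadjusted p under 0.05, as had 8.59% of tested genes.

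Other genes of the clock were taken from 7 lists by role, and 40 of them were tested. None passed in any of the 4 comparisons. In 18 of the 40 every 1 of the 4 libraries that stood apart lay above the other 8, and in 8 every 1 lay below, against 3.86% and 3.30% of all tested genes. The gene per1b, used above to describe those 4 libraries, is 1 of the 18. As the lists were chosen with the split known, these counts are a description only. Of 12 repressors of the E-box loop, 9 were above and 2 below. Those above include per2, a light-induced period gene, with 639 and 851 scaled counts in control replicates 2 and 3 against 330.4 in control replicate 1, and bhlhe40, which competes for E-boxes, with 2178 and 1701 against 992. The cryptochrome gene cry2b was below like the 8 genes, with 194 and 147 against 874, and so was cry2a. Among the 5 REV-ERB genes, which repress ROR targets, nr1d1 and nr1d2b were above and nr1d4b below. The receptor gene nr1d1 had 1694 and 967 against 14.9.

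Of the 8 PAR bZIP and NFIL3 genes, dbpa, dbpb and tefa were above, and hlfb and nfil3-2 were below. The D-box activator gene tefa had 1833 and 2698 scaled counts in control replicates 2 and 3 and 471 in control replicate 1. Of the 3 light-induced flavoprotein genes, cry5 and cry-dash were above and cry4 was below. The photolyase gene cry5 had 149.7 and 301 against 18.5, and cry4 had 137 and 86.9 against 257. Of the 3 pineal output genes, aanat2 was below. A second copy of the CLOCK gene, clockb, was also below, with 239.9 and 201 against 306, a narrower difference than that of clocka. The receptor genes roraa, rorab and rorb did not separate the libraries in this way.

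Against control, medians of the E-box repressor list were -0.33, -1.26 and -1.35 at 1, 3 and 10 ppm (2 of 12 higher at each). Those of the 4 other activators were -0.18, 0.31 and 0.25 (0, 3 and 3 higher), and those of the 8 PAR bZIP and NFIL3 genes -0.24, -0.44 and -0.31 (1, 3 and 4 higher). The 5 REV-ERB genes had -0.63, -0.59 and 0.24 (0, 2 and 3 higher). The 5 casein kinase and ubiquitin ligase genes, which set the stability of clock proteins, had -0.10, -0.16 and -0.19 (1 higher at each). The 3 light-induced flavoprotein genes had -0.04, -1.63 and -1.74 (1 higher at each), and the 3 pineal output genes -0.02, -0.05 and 0.11 (1, 1 and 2 higher). Between 10 and 3 ppm medians were 0.03 for E-box repressors, -0.11 for other activators, 0.59 for REV-ERB genes (5 of 5 higher), 0.19 for PAR bZIP and NFIL3 genes (8 of 8 higher), 0.02 for kinases and ligases, -0.10 for flavoproteins and 0.25 for pineal genes (3 of 3 higher). Of all tested genes, 52.0% were higher at 10 than at 3 ppm. In the REV-ERB, PAR bZIP and NFIL3, and pineal lists the lowest unadjusted p there was 0.136 (limma, nr1d4a). Against control the same caution holds at each dose as for the 8 genes, as the lists hold many genes that separate the 4 libraries.

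Profiles most like those of the 8 genes were found by the root mean square difference of centred log2(scaled count + 1) over the 12 libraries, among 15204 tested genes with a symbol. For arntl1a and npas2 the nearest were the cryptochrome gene cry4 (0.13 and 0.15) and neurod1, a neuronal and photoreceptor transcription factor gene (0.17 and 0.19), then ENSDARG00000070957 for arntl1a (0.19) and the retinal gene rd3 for npas2 (0.21). For arntl1b they were ccdc88aa (0.25), si:ch211-113j14.1 (0.36) and ENSDARG00000092354 (0.39). The last was also nearest to clocka (0.23), before hlfb (0.30) and ampd3b (0.31). Nearest to arntl2 was aanat2 (0.27), which makes the melatonin precursor in the pineal gland, then lmod2b (0.29) and klf13 (0.30).

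For rorca the nearest profiles were lrit2 (0.18), ENSDARG00000070957 (0.19) and the calcium channel subunit gene cacna2d4a (0.19). Both rorcb and nfil3-5 lay near nfil3-2, another NFIL3 family gene (0.71 and 0.31), and near si:ch211-133l5.5 (0.79 and 0.19). Next came slc1a7a, a glutamate transporter gene, for rorcb (0.82) and cry2b for nfil3-5 (0.39). Among the 8 themselves, arntl1a and rorca (0.23) and arntl1a and npas2 (0.24) were most alike by this measure, and arntl1a and rorcb (1.44) least. The measure depends on how far each gene varied as well as on its pattern. The root mean square about a gene's own mean was 0.56 for arntl1a and 1.98 for rorcb. All 8 were lowest in the same 4 libraries, so a large value does not mean an opposite pattern.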

How the data were processed

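The deposited count table holds a signal per gene and library. Its values are fragment counts over a size factor of each library, set by the authors, as read from the values: 98.1% to 98.5% of those above 0 were whole multiples of a step of 0.564 to 1.17, within 0.02 steps. Division by the step gave recovered fragments. The FPKM are those the authors deposited. The submitters' processing notes list cutadapt, TopHat, Cuffnorm, CASAVA 1.8.2 and FastQC, and the build Zv9, without roles or settings. The third control column of the count table has letters of its name transposed and was matched by its number.

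limma 3.58.1 (R 4.3.3) was fitted to log2(scaled count + 1) of 18390 genes with a mean of at least 10. Diet was a factor, all 12 libraries entered, and the fit used a mean-variance trend and robust moderation. P-values were two-sided and adjusted over all tested genes (Benjamini-Hochberg, 0.05). The procedure was also run on simulated counts, which had the same spread beyond counting error for every gene. They held no split among libraries, so that run does not cover the split seen here. Fold changes on this scale understate those of low genes.

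The 8 genes, the clock lists and the tests were chosen with earlier results of these data known. Of 69 symbols listed, some of them synonyms, 40 genes were tested. Named besides the 8 genes are per1b, nr1d1, per2, cry5, bhlhe40 and tefa, and the 3 nearest profiles of each of the 8. clockb, the other ror genes, cry2a, cry2b, cry4, cry-dash, nr1d2b, nr1d4b, dbpa, dbpb, hlfb, nfil3-2 and aanat2 are named from the lists after their values were seen. Alternatives changed the filter, the pseudocount, the table, the scaling, the tool, the covariates and the libraries. Protein and promoter sequences were not used here. Python 3.11.15, pandas 2.3.3 and matplotlib 3.10.9 made the tables and figures.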

Additional observations from a re-analysis of the deposited data

How the results depend on the processing

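Over 23 alternatives, the 8 genes had 183 refitted log2 fold changes in each comparison. Direction and side of the threshold held in 159 at 1 ppm, 176 at 3 ppm, 175 at 10 ppm and 183 between 10 and 3 ppm, and 24, 6 and 6 values reversed against control. The cause was not tested.

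Without the 4 libraries that stood apart, the values that reversed at 1 ppm were -0.047 for arntl1a, -0.11 for clocka, -0.37 for npas2 and -0.40 for arntl1b. The other genes kept their direction there, with arntl2 higher (0.32) and nfil3-5 (-0.25), rorca (-0.46) and rorcb (-0.62) lower. At 3 ppm the reversed values were -0.030 for arntl1a, -0.085 for rorcb and -0.41 for rorca. At 10 ppm they were -0.27 for rorcb, -0.16 for arntl1b and -0.58 for rorca. Genes not named at 3 or 10 ppm stayed higher at that dose. With per1b as a covariate, the reversed values were -0.043 (arntl1a) and -0.18 (arntl1b) at 1 ppm. At 3 ppm they were -0.023 (arntl1a), -0.16 (rorcb) and -0.29 (rorca), and at 10 ppm -0.64 (rorcb), -0.19 (arntl1b) and -0.57 (rorca). All other genes kept their direction in that fit. With limma-voom on recovered fragments, added after seeing the data, rorcb reversed to 0.029 at 1 ppm.

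Leaving out 1 library at a time moved the values at 1 ppm from -0.23 to 0.51 for arntl1a, -0.25 to 0.79 for clocka, -0.10 to 0.67 for npas2, -1.38 to 1.17 for rorcb, -0.59 to 0.79 for arntl1b, -0.26 to 0.64 for arntl2, -0.49 to 0.48 for rorca and -0.90 to 0.85 for nfil3-5. No value at 3 or 10 ppm reversed in this way, but their sizes moved. At 3 ppm the ranges were 0.41 to 1.16 for arntl1a, 0.84 to 2.22 for arntl1b, 0.98 to 1.70 for arntl2, 0.75 to 1.79 for clocka, 0.85 to 1.61 for npas2, 0.23 to 1.20 for rorca, 1.76 to 4.05 for rorcb and 1.501 to 3.04 for nfil3-5. At 10 ppm they were 0.56 to 1.30, 0.61 to 1.99, 1.26 to 1.97, 1.05 to 2.09, 0.64 to 1.41, 0.051 to 1.02, 1.58 to 3.87 and 1.88 to 3.42 in the same order of genes.

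The number of all genes called ranged, with 1 library left out, from 3 to 17 at 3 ppm and from 0 to 41 at 10 ppm, the highest without control replicate 1. It ranged from 3 to 5 between 10 and 3 ppm, highest without 3 ppm replicate 1, and from 3 to 9 over all diets, highest without control replicate 1 (7 without 3 ppm replicate 1, 5 without 3 ppm replicate 3). Without the 4 libraries it was 7 at 3 ppm, 7 over all diets and 5 between 10 and 3 ppm, and 5 there with only the compared groups fitted. At 10 ppm it was 1 with FPKM + 1 or FPKM + 0.1.

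Deviations of same-numbered libraries from their diet means correlated at -0.23 to 0.47, above 0.1 in 6 pairs. Replicates 1 and 3 of control and 1 ppm did deviate together (0.47 and 0.44) but replicates 2 did not (-0.11), so the numbers were not taken as a pairing. With a replicate block 0, 3, 0 and 3 genes were called in the 4 comparisons and 4 over all diets.

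A minimum mean of 50 left arntl2 untested. TMM rescaling, the quasi-likelihood test and the negative binomial test on counts were not run, because some values lie far below 1 fragment and the table could not be taken as whole counts throughout. Depth limits rorcb most, at 3 fragments in 1 ppm replicate 3.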
